A study of Mus musculus with 4 samples.

Results

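Bin1, Picalm, Cd2ap, Rin3, Sorl1, Abi3, Ptk2b, Cass4 and Abca7 are the mouse orthologs of genes at human loci that carry inherited risk of late-onset Alzheimer's disease (AD). They were taken by symbol from the gene list of a single-cell RNA sequencing (scRNA-seq) experiment on brain myeloid cells, as 9 of its 19737 genes, and exclude Trem2 and Apoe with their own pathways. All 9 had counts in 20 of 20 mice, from 7251 unique molecular identifiers (UMIs, each standing for 1 captured transcript) for Cass4 to 649593 for Bin1, and all 9 passed the filter on low counts.

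Risk variants at these loci sit mostly in non-coding DNA, and several are active in microglia, the resident macrophages of the brain. The genes fall into a few roles. Bin1, Picalm, Cd2ap, Rin3 and Sorl1 act in endocytosis and in the sorting of what has been taken up, the route by which microglia carry surface receptors and engulfed material to lysosomes. Abi3, Ptk2b and Cass4 act where surface receptors meet the actin skeleton, and Abca7 is a membrane transporter that moves phospholipids.

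The experiment asked how an antibody that activates the microglial receptor TREM2 changed these cells with and without amyloid. 4D9 binds mouse TREM2, and ATV:4D9 carries in addition an antibody transport vehicle (ATV), an Fc site that binds the human transferrin receptor (TfR) and carries the antibody into the brain. ATV:ISO is the isotype control with the same ATV, and is the reading given here to the deposited treatment name ATV-DNP02. Each mouse received a single intravenous dose of 10 mg/kg and was killed after 24 h.

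All 20 mice, on a C57BL/6J background, carried TfRmu/hu, in which the apical domain of human TfR replaces that of the mouse. Of these, 8 were WT;TfRmu/hu, given ATV:ISO or ATV:4D9 (4 mice each). The other 12 were AppSAA;TfRmu/hu, homozygous for both alleles and given ATV:ISO, 4D9 or ATV:4D9 (4 mice each). AppSAA is a knock-in of the App gene with a human amyloid-beta sequence and familial AD mutations, expressed from the mouse's own promoter. WT mice given 4D9 without ATV were not part of the groups. ATV:4D9 was built on a human IgG backbone with mutations that reduce Fc receptor binding. AppSAA mice were 8 months old, and the WT;TfRmu/hu mice of the whole study, of which these are a part, 2 to 8 months; no age was given mouse by mouse in the sources used here, and its part in the genotype comparisons was not tested. Of the mice, 1 (WT ATV:ISO replicate 4) was recorded as female and 19 as male. Cells were sorted as live CD11b+ cells in 4 pools that each held 1 mouse of each group, so that pool and replicate number are the same thing, and the descriptions differ on whether CD45 was also gated and whether hippocampus was included with cortex.

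The 74758 deposited cells gave 2193 to 6126 cells and 17150296 to 102446549 UMIs per mouse. Barcodes of 1089 cells (543 barcodes) occurred in more than 1 pool. The 6 microglial markers (Cx3cr1, P2ry12, Tmem119, Csf1r, Sall1 and Fcrls) were present in every mouse, with a summed level of 5894 to 15090 in counts scaled to the library's UMI total (CPM, the usual unit, here without further scaling). They were highest in WT ATV:ISO mice (13456 to 15090) and lowest in AppSAA ATV:4D9 mice (5894 to 7601), whose range overlapped only slightly with that of WT ATV:4D9 mice (7541 to 8779). Markers of other cells were low, at 11.1 to 35.6 CPM summed over 6 genes for border macrophages, 4.09 to 10.3 over 5 for monocytes in all groups but AppSAA ATV:4D9 (10.00 to 13.7), 4.48 to 23.7 over 5 for neutrophils, 0.859 to 4.50 over 4 for astrocytes and 0.449 to 2.05 over 4 for neurons. Of the monocyte markers, Plac8 reached 10.3 CPM and Ccr2 6.06 CPM in a mouse, while Ly6c2, Chil3 and Vcan reached at most 2.67, 1.51 and 0.871 CPM. The summed level of the 4 endothelial markers moved with the groups, at 18.3 to 24.5 CPM in WT ATV:ISO, 9.54 to 13.1 in WT ATV:4D9, 37.5 to 52.4 in AppSAA ATV:ISO and 13.2 to 26.2 in AppSAA ATV:4D9 mice. Over all mice Flt1 gave 1.08 to 43.4 CPM and Pecam1 3.71 to 20.9 CPM, while Cldn5 and Ly6c1 reached at most 0.416 and 0.377 CPM. The 5 oligodendrocyte markers summed to 79.4 to 119 CPM and the 8 lymphocyte markers to 161 to 275 CPM, of which Ighm alone gave 161 to 274. In WT mice both sums were lower with ATV:4D9 than with ATV:ISO, at 79.4 to 87.7 against 108 to 119 CPM and 183 to 194 against 247 to 275 CPM. In AppSAA mice the lymphocyte sum was lower too (161 to 188 against 213 to 251 CPM), while the oligodendrocyte sums overlapped (84.8 to 103 and 87.2 to 101 CPM). A list of 8 immediate early genes, which rise during tissue dissociation, summed to 9341 to 11643 CPM in WT ATV:ISO and 6721 to 8559 CPM in WT ATV:4D9 mice. The part of these markers in the results below was not tested.

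Mean UMIs per cell were 7820 to 9475 in WT ATV:ISO mice and 14932 to 18783 in WT ATV:4D9 mice. They were 10392 to 12226 in AppSAA ATV:ISO, 10021 to 13970 in AppSAA 4D9 and 15300 to 18049 in AppSAA ATV:4D9 mice. A level in CPM and a level per cell therefore answer different questions here, and both are given for the number of the 9 genes called between groups and for most of the changes after ATV:4D9. Values per cell are without a block for pool unless one is named. Results for clusters are in CPM unless they are said to be per cell. CPM below are scaled by trimmed mean of M values (TMM), and a fold change is a difference in log2 CPM with its standard error (SE) unless it is said to be per cell. In sums over a mouse, fewer cells of a type and less RNA per cell of that type cannot be told apart.

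Promoter sequence (GRCm38.p6, the same build as mm10) was listed in the reference used for 6 of the 9 genes, with 8 promoters between them. None was listed there for Abi3, Ptk2b and Bin1. The stretch before the gene start of Picalm, Sorl1 and Cass4 is shown because all 3 were lower in CPM after ATV:4D9 in WT mice, while of these only Sorl1 passed a test of the difference between genotypes without a block for pool. They lie at chr7:90129963-90130191 (+ strand), chr9:42124298-42124547 (- strand) and chr2:172393394-172393643 (+ strand). Capitals mark matches to the motifs searched and are a description of the letters only:
Picalm: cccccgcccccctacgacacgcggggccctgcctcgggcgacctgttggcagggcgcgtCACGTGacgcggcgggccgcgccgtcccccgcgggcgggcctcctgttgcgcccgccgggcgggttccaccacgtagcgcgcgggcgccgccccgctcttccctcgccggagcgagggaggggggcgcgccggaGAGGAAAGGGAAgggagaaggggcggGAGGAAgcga
Sorl1: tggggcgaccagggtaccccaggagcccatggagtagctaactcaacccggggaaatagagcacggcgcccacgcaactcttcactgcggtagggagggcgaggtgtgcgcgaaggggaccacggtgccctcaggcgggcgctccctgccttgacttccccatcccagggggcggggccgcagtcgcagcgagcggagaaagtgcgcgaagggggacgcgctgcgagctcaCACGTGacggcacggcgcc
Cass4: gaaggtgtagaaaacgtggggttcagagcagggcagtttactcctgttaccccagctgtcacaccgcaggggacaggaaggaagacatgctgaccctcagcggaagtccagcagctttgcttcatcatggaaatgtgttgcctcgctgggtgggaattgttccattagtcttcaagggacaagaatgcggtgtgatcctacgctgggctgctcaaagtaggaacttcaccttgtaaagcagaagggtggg

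The motifs were GAGGAA (core of the site of PU.1, a myeloid transcription factor), CACGTG (an E-box), TGANTCA (AP-1), GAAANNGAA (interferon response) and TTTNGCGC (E2F), searched on both strands over the 250 bases before each listed start. That of Picalm lies 21 bases inside the annotated gene, and the bases inside the gene are not printed. Counted from the annotated gene start, Picalm held GAGGAA at -36 and -10, GAAANNGAA at -33 (overlapping the first of these) and CACGTG at -170. Sorl1 held CACGTG at -19, and the Cass4 stretch held none of the 5. GAGGAA was present in 1 of the 8 promoters and in 23.3% of 32851 promoters of the same length, CACGTG in 2 of 8 and 6.02%, and GAAANNGAA in 1 of 8 and 7.13%. TGANTCA and TTTNGCGC were found in none of the 8, against 6.75% and 1.13% of all promoters.

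The 9 genes did not move as a block. In WT mice, ATV:4D9 against ATV:ISO gave 6 genes lower (Picalm, Cd2ap, Rin3, Sorl1, Abi3 and Cass4) and 1 higher (Abca7) in CPM, in a comparison that called 63.3% of 14058 genes tested. Per cell 5 of the 9 were higher and none lower, where 70.5% of genes were called, 9582 of 9912 of them higher. In CPM the median log2 fold change of the 9 was -0.41, beside -0.05 over all genes. Between genotypes under ATV:ISO, 4 genes (Bin1, Rin3, Sorl1 and Cass4; per cell, only Bin1 and Cass4, with 24.4% of genes called) were lower in AppSAA mice, where 28.2% of genes were called, with a median of -0.30 beside -0.06 over all genes. In AppSAA mice, 2 genes (Rin3 and Cass4) were lower after ATV:4D9 than after ATV:ISO, where 55.1% of genes were called (median -0.18 beside -0.03), and the same 2 against 4D9, where 54.3% were called (median -0.17 beside -0.03). Per cell without the block, neither of these was called. Bin1, Sorl1, Abi3 and Abca7 were called higher per cell against ATV:ISO, where 55.3% of genes were called, and Bin1 and Abi3 against 4D9, where 52.7% were. Of the calls per cell over all genes in these comparisons, 7326 of 7774 and 6884 of 7410 were higher. Those comparisons share the ATV:4D9 mice, and other comparisons here share control mice too. Under ATV:4D9, AppSAA mice had Sorl1 higher and Cass4 lower than WT mice, where 11.8% of genes were called (median -0.03 beside -0.01). The test of the difference itself, the ATV:4D9 effect in AppSAA minus that in WT mice, called 1 of the 9, Sorl1, where 9.14% of genes were called (median 0.23 beside 0.04); per cell it called none (15.9% of genes), and Cass4 alone was called between genotypes under ATV:4D9 (5.96%).

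4D9 without ATV gave no call among the 9 genes against ATV:ISO in AppSAA mice by edgeR's quasi-likelihood test, none at an unadjusted p under 0.05, and none by DESeq2 or limma-voom. Across all genes the share called was 0% by edgeR and 1 gene by DESeq2. The log2 fold changes of the 9 lay between -0.03 (Abi3) and 0.17 ± 0.12 (Sorl1), and levels overlapped between the groups for all 9.

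**Figure D1:**
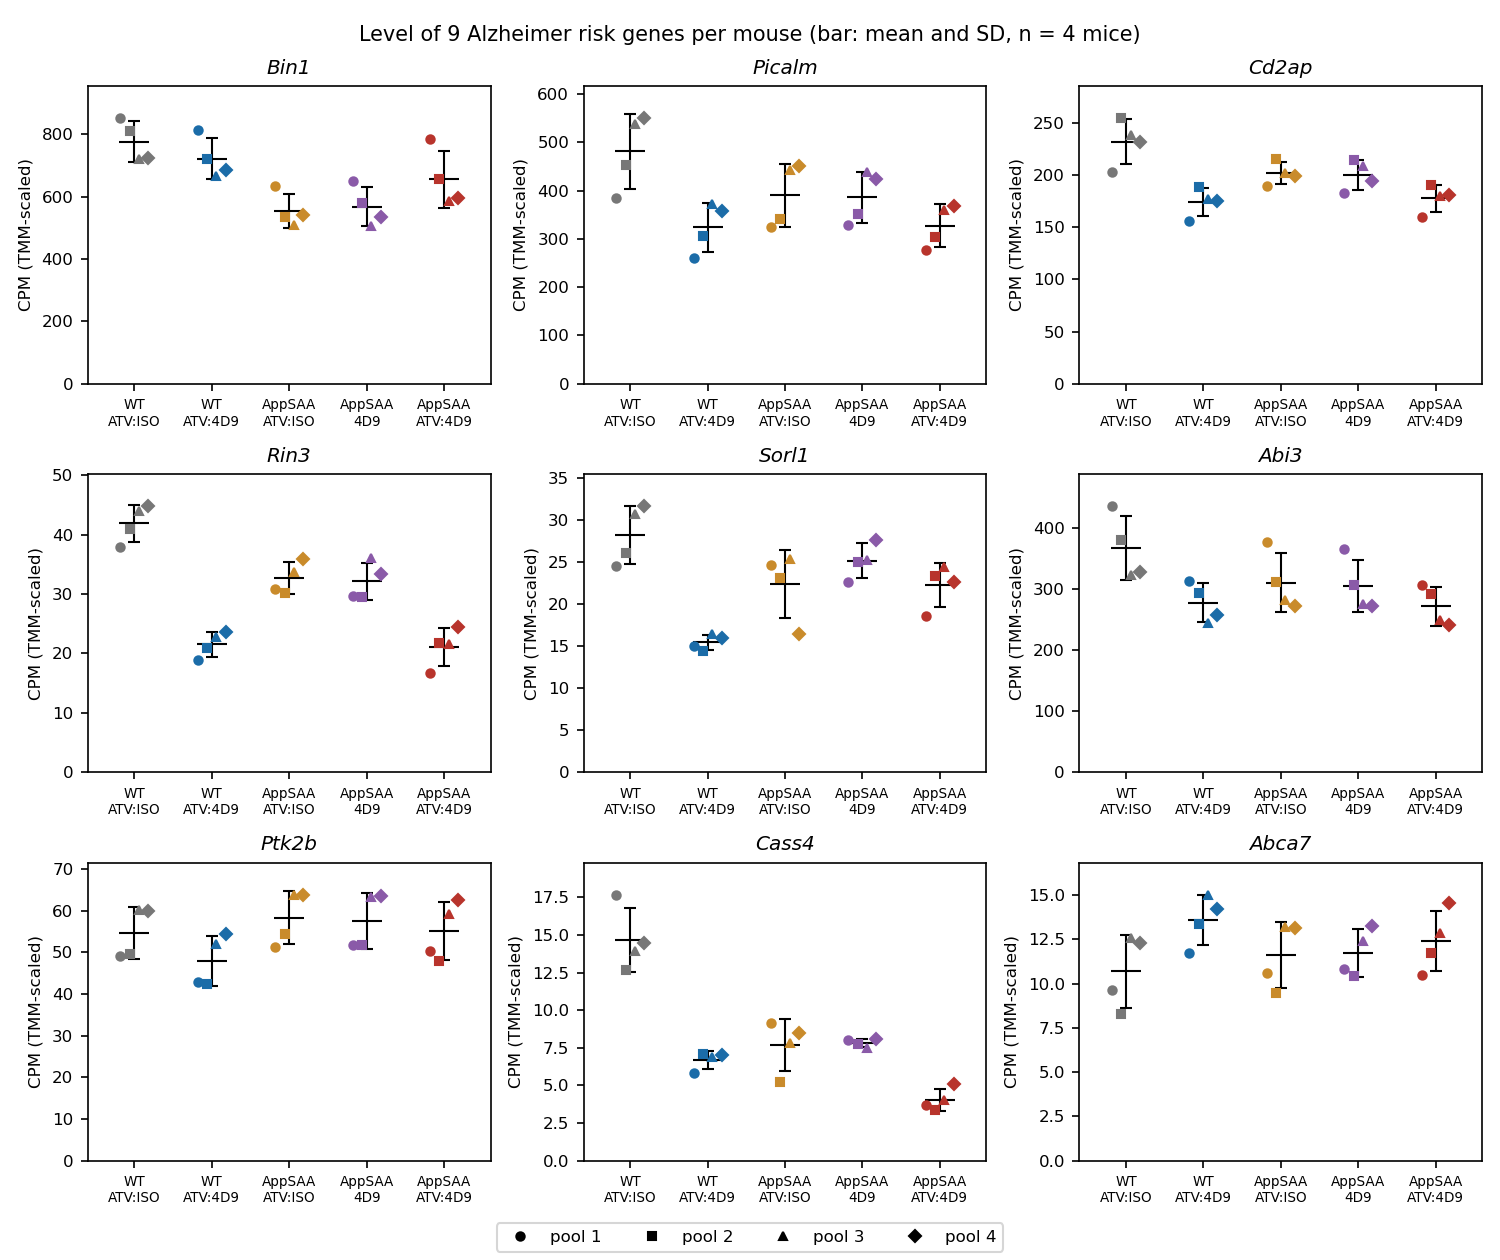
Level of each of the 9 genes in every mouse, in TMM-scaled CPM on a linear axis from 0, by group; marker shape gives the pool and bars the mean and SD of 4 mice. Rin3 and Cass4 are lower in every ATV:4D9 mouse than in every ATV:ISO mouse of the same genotype in CPM, and Sorl1 is lower in every ATV:4D9 than every ATV:ISO mouse in WT but overlaps in AppSAA mice; per cell, none of these 3 was called lower after ATV:4D9 without the pool block, while with it Cass4 was in both genotypes and Rin3 in AppSAA mice.

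Levels also differed by pool in every group. Picalm, Ptk2b and Abca7 were higher in pools 3 and 4 than in pools 1 and 2 in 5 of 5 groups, and Abi3 was lower in 5 of 5 and Bin1 in 4 of 5. The mean of a pool varied from 1.16-fold (Sorl1) to 1.37-fold (Picalm) between the highest and the lowest. Once group means were removed, Picalm and Abi3 ran opposite to each other over the 20 mice (Pearson r = -0.95), Bin1 with Abi3 (0.91) and Picalm with Ptk2b (0.92); these mice share pools, so the values describe pool differences as much as mice. With pool as a block, the calls grew. In WT mice 1 gene was then higher and 8 lower after ATV:4D9, where 74.6% of all genes were called. For genotype under ATV:ISO it was 1 higher and 7 lower (51% of genes). ATV:4D9 against ATV:ISO in AppSAA mice gave 1 higher and 6 lower (70.7%), and against 4D9 1 higher and 5 lower (69.9%). Genotype under ATV:4D9 gave 2 higher and 2 lower (31.4%), and the difference of effects 6 higher and 0 lower (30.5%). 4D9 against ATV:ISO stayed at 0.

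The block was also fitted to levels per cell, an alternative chosen after the data were seen. In WT mice ATV:4D9 then gave Bin1, Picalm, Cd2ap, Abi3, Ptk2b and Abca7 higher and Cass4 lower, where 82.8% of all genes were called. In AppSAA mice all 9 were called against ATV:ISO (74.6% of genes) and against 4D9 (72.4%), with Rin3 and Cass4 lower and the other 7 higher in both. For genotype under ATV:ISO it called Ptk2b and Abca7 higher and Bin1 and Cass4 lower (44.7%), and under ATV:4D9 Sorl1 higher and Bin1, Cass4 and Abca7 lower (31%). The difference of effects was then called for Sorl1 (higher) and for Ptk2b and Abca7 (lower), where 45.7% of genes were called. Cass4 was thus lower after ATV:4D9 on both scales in the blocked fits, while the direction of Bin1 in WT mice and of Picalm, Cd2ap, Abi3 and Ptk2b in both genotypes was opposite on the 2 scales.

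Bin1 (chr18:32376618-32435740), a BAR-domain protein that bends membranes during endocytosis, was lower in AppSAA than in WT mice under ATV:ISO, while its ATV:4D9 differences did not pass edgeR's test in CPM over all 20 mice without the pool block. In WT ATV:ISO mice its level was 852, 810, 721 and 722 CPM in replicates 1 to 4, and in WT ATV:4D9 mice 813, 719, 665 and 685. The ranges overlapped, although each mouse lay below its pool mate. AppSAA ATV:ISO mice had 634, 536, 507 and 540 CPM, AppSAA 4D9 mice 648, 580, 507 and 533 and AppSAA ATV:4D9 mice 783, 655, 587 and 595. Every AppSAA ATV:ISO mouse was below every WT ATV:ISO mouse, and all 4 ATV:4D9 mice were above the ATV:ISO mouse of their pool. Under ATV:ISO the log2 fold change of AppSAA against WT was -0.49 ± 0.10 (adjusted p = 0.0014), a fall by 28.6%. The ATV:4D9 effect was -0.11 ± 0.10 in WT (adjusted p = 0.382) and 0.24 ± 0.10 in AppSAA mice (0.0562). With the pool block both of these passed, at adjusted p = 0.0163 and 2.52e-05, as did their difference of 0.35 (0.00014) and the rise against 4D9 of 0.20 (0.000119). Under ATV:4D9 the blocked genotype difference was -0.14 (adjusted p = 0.00837). DESeq2, without the block, called the ATV:4D9 against ATV:ISO difference in AppSAA mice (0.24 ± 0.11, adjusted p = 0.0489). By edgeR it was called without the block when WT ATV:4D9 replicate 1 (0.24, adjusted p = 0.0495), AppSAA ATV:ISO replicate 1 (0.31, 0.0215), AppSAA 4D9 replicate 1 (0.24, 0.0479) or AppSAA ATV:4D9 replicate 3 (0.29, 0.0345) or 4 (0.30, 0.0235) was left out. The same held against 4D9 without AppSAA 4D9 replicate 1 (0.28, 0.0369) or AppSAA ATV:4D9 replicate 4 (0.27, 0.0389). Counted per cell, Bin1 went from 739 ± 33.9 UMIs per 100 cells in WT ATV:ISO to 1232 ± 78.2 in WT ATV:4D9 mice, so that its small WT difference reversed to 0.74 ± 0.09. In AppSAA mice the per-cell rises after ATV:4D9 were 0.74 ± 0.09 against ATV:ISO and 0.67 ± 0.09 against 4D9, both called.

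Picalm (chr7:90130192-90209447), which helps clathrin coats assemble on the membrane, was lower after ATV:4D9 in WT mice in CPM but not per cell. WT ATV:ISO mice had 384, 454, 537 and 551 CPM and WT ATV:4D9 mice 261, 306, 373 and 358, without overlap. The log2 fold change was -0.57 ± 0.15 (adjusted p = 0.00198), a fall by 32.6%, and per cell it reversed to 0.27 ± 0.25, which was called only with the block (0.28, adjusted p = 0.000561). AppSAA mice had 325, 341, 443 and 452 CPM with ATV:ISO, 329, 352, 438 and 425 with 4D9 and 277, 304, 361 and 368 with ATV:4D9. These ranges overlapped, with each ATV:4D9 mouse below its pool mate. The genotype difference under ATV:ISO was -0.30 ± 0.15 (adjusted p = 0.128) and the ATV:4D9 effect in AppSAA mice -0.25 ± 0.15 (0.15). In AppSAA mice the ATV:4D9 effects turned to 0.23 ± 0.25 against ATV:ISO and 0.20 ± 0.25 against 4D9 per cell, neither called. In CPM the genotype difference under ATV:ISO and the AppSAA effect against ATV:ISO passed with the pool block, at adjusted p = 2.24e-06 and 9.52e-06. So did the difference against 4D9 (-0.24, 1.64e-05) and the difference of effects (0.32, 0.000183).

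Cd2ap (chr17:42748887-42876707), a scaffold between endocytic proteins and actin, was lower after ATV:4D9 in WT mice in CPM and higher per cell. Its levels were 203, 255, 238 and 232 CPM in WT ATV:ISO and 156, 188, 177 and 175 CPM in WT ATV:4D9 mice. The groups did not overlap, and the log2 fold change was -0.41 ± 0.08 (adjusted p = 0.000176) in CPM, against 0.43 ± 0.16 per cell, where it was called higher. In AppSAA mice the levels were 190, 216, 202 and 199 CPM with ATV:ISO, 183, 214, 209 and 194 with 4D9 and 160, 191, 180 and 180 with ATV:4D9. They overlapped, and no AppSAA comparison passed edgeR's test over all 20 mice without the block (ATV:4D9 against ATV:ISO -0.18 ± 0.08, adjusted p = 0.0627). DESeq2 called that one (-0.19 ± 0.08, adjusted p = 0.0365), as did edgeR without WT ATV:ISO replicate 1 (-0.18, 0.0471) or AppSAA ATV:4D9 replicate 2 (-0.22, 0.0423). Against 4D9 it was called without AppSAA 4D9 replicate 1 (-0.21, 0.0464), and for genotype under ATV:ISO without WT ATV:ISO replicate 1 (-0.26, 0.0247). With the block, genotype under ATV:ISO (-0.20, 4.97e-05), ATV:4D9 against ATV:ISO (-0.18, 4.43e-05), ATV:4D9 against 4D9 (-0.17, 0.000103) and the difference of effects (0.23, 0.000939) all passed in CPM. Per cell without the block, the AppSAA changes were 0.31 ± 0.16 against ATV:ISO and 0.28 ± 0.16 against 4D9, neither called.

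Rin3 (chr12:102282840-102390854), an exchange factor that activates the early endosome GTPase Rab5, was lower in CPM after ATV:4D9 in both genotypes, with smaller per-cell differences. WT ATV:ISO mice had 37.9, 40.9, 44.0 and 44.8 CPM and WT ATV:4D9 mice 18.8, 21.0, 22.7 and 23.6. The gap between these groups exceeded the range within either. AppSAA ATV:ISO mice had 30.8, 30.1, 33.7 and 36.0 CPM, AppSAA 4D9 mice 29.7, 29.5, 36.0 and 33.4 and AppSAA ATV:4D9 mice 16.6, 21.7, 21.5 and 24.4. The ATV:4D9 mice lay below both other AppSAA groups. Log2 fold changes were -0.96 ± 0.11 in WT (adjusted p = 1.29e-07), -0.63 ± 0.10 in AppSAA against ATV:ISO (3.66e-05) and -0.61 ± 0.10 against 4D9 (5.89e-05), each called without any single mouse. Genotype under ATV:ISO gave -0.36 ± 0.10 (0.0135). Under ATV:4D9 the genotypes differed by -0.03 ± 0.10 (0.929), and the difference of effects, 0.33 ± 0.15, passed with the pool block (adjusted p = 0.00444) or without AppSAA ATV:4D9 replicate 1 (0.43, 0.0311). In UMIs per 100 cells Rin3 was at 40.4 ± 7.84 and 37.4 ± 7.89 in WT ATV:ISO and ATV:4D9 mice and at 37.1 ± 7.27 and 33.7 ± 7.27 in AppSAA ATV:ISO and ATV:4D9 mice. These differences were not called without the block, although the ATV:4D9 mouse was below its pool mate in 4 of 4 pools in WT mice, in 3 of 4 in AppSAA mice against ATV:ISO and in 4 of 4 against 4D9. With the block, the per-cell falls were called in AppSAA mice (-0.14 against ATV:ISO, adjusted p = 0.0435, and -0.15 against 4D9, 0.0305) and not in WT mice (-0.12, 0.0776).

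Sorl1 (chr9:41964709-42124297), a sorting receptor that works with retromer to return cargo from endosomes, was the only one of the 9 whose ATV:4D9 effect differed between genotypes in CPM over all 20 mice without the pool block. WT ATV:ISO mice had 24.6, 26.1, 30.8 and 31.7 CPM, and WT ATV:4D9 mice 15.0, 14.4, 16.4 and 15.99. The groups were well apart. In AppSAA mice it was 24.6, 23.2, 25.4 and 16.5 CPM with ATV:ISO, 22.7, 25.1, 25.3 and 27.7 with 4D9 and 18.5, 23.4, 24.4 and 22.7 with ATV:4D9. The 3 AppSAA groups overlapped throughout, with ATV:ISO replicate 4 below all other AppSAA mice, and all 4 AppSAA ATV:4D9 mice lay above all WT ATV:4D9 mice. The log2 fold change after ATV:4D9 was -0.87 ± 0.12 in WT (adjusted p = 2.75e-06) and -0.01 ± 0.12 in AppSAA mice (0.953). Their difference was 0.86 ± 0.17 (adjusted p = 0.00219) and was called in all 20 fits that left out 1 mouse, with values of 0.74 to 0.94 and adjusted p up to 0.00809. Over the other settings, adjusted p ran from 0.00011 (DESeq2) to 0.00532 (only the groups compared) in CPM. Per cell the difference was 0.54 ± 0.28 and was not called (adjusted p = 0.209), unless pool was a block (0.51, 0.0164), and the AppSAA effect was 0.50 ± 0.20 (0.0381) beside -0.04 ± 0.20 in WT mice. Under ATV:4D9 the level was 0.53 ± 0.12 higher in AppSAA than in WT mice (adjusted p = 0.00468), a difference that was not called per cell (0.41, 0.280) unless pool was a block (0.41, 0.0105). The genotype difference under ATV:ISO, -0.34 ± 0.12 (adjusted p = 0.0387), depended on the setting and on single mice. It was not called with RLE factors (-0.31, adjusted p = 0.0568), without a filter on low counts (-0.29, 0.0916), in cells of 1000 to 25000 UMIs (-0.31, 0.0707), with only the groups compared (-0.31, 0.117) or per cell (-0.13, 0.749). It was also not called without AppSAA ATV:ISO replicate 2 (-0.35, 0.0631) or 4 (-0.21, 0.136), WT ATV:ISO replicate 3 (-0.29, 0.113) or 4 (-0.28, 0.131) or AppSAA ATV:4D9 replicate 4 (-0.31, 0.0757).

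Abi3 (chr11:95830072-95842476), a part of the WAVE complex that promotes branched actin, was lower in CPM and higher per cell after ATV:4D9 in WT mice. Its levels were 436, 380, 324 and 328 CPM with ATV:ISO and 314, 293, 245 and 258 with ATV:4D9. The groups did not overlap, by a gap smaller than the range within either. The log2 fold change was -0.40 ± 0.13 (adjusted p = 0.00911), and per cell 0.45 ± 0.07, from 347 ± 12.7 to 473 ± 20.02 UMIs per 100 cells. AppSAA mice had 378, 312, 282 and 271 CPM with ATV:ISO, 365, 307, 275 and 273 with 4D9 and 306, 291, 249 and 241 with ATV:4D9. These overlapped, with changes of -0.19 ± 0.13 against ATV:ISO (0.207) and -0.16 ± 0.13 against 4D9 (0.284), which reversed to called rises of 0.31 and 0.31 per cell. The pool block called both in CPM (adjusted p = 0.0002 and 0.000814), the genotype difference under ATV:ISO (-0.24, 3.81e-05) and the difference of effects (0.21, 0.00589).

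Ptk2b (chr14:66153257-66281100), which encodes the focal adhesion kinase family member Pyk2, had no call in CPM without the block. WT mice had 49.0, 49.6, 60.2 and 60.0 CPM with ATV:ISO and 42.9, 42.5, 51.9 and 54.4 with ATV:4D9. AppSAA mice had 51.3, 54.5, 63.7 and 63.9 CPM with ATV:ISO, 51.7, 51.8, 63.3 and 63.5 with 4D9 and 50.5, 47.9, 59.3 and 62.5 with ATV:4D9. Pools 1 and 2 lay below pools 3 and 4 in every group, and all groups of each comparison overlapped. The ATV:4D9 effect in WT mice was -0.19 ± 0.12 (adjusted p = 0.152), became a call with the block (3.25e-05) and reversed to 0.65 ± 0.23 per cell, where it was called higher. The blocked fit also called Ptk2b higher in AppSAA than in WT mice under ATV:ISO (0.09, 0.0234) and ATV:4D9 (0.20, 0.000106) and lower after ATV:4D9 than after ATV:ISO in AppSAA mice (-0.09, 0.0218), all in CPM. Per cell without the block, the AppSAA changes after ATV:4D9 were 0.41 ± 0.23 against ATV:ISO and 0.38 ± 0.23 against 4D9, neither called.

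Cass4 (chr2:172393644-172433752), a Cas-family scaffold that docks adhesion kinases, was called lower in CPM after ATV:4D9 in both genotypes and in AppSAA mice under both ATV antibodies. WT ATV:ISO mice had 17.7, 12.7, 13.9 and 14.4 CPM and WT ATV:4D9 mice 5.83, 7.06, 6.91 and 6.99. AppSAA mice had 9.14, 5.22, 7.84 and 8.47 CPM with ATV:ISO, 7.99, 7.76, 7.51 and 8.06 with 4D9 and 3.67, 3.33, 4.06 and 5.06 with ATV:4D9. WT ATV:ISO mice lay above all others, and AppSAA ATV:4D9 mice below all others. The log2 fold change after ATV:4D9 was -1.13 ± 0.15 in WT mice (adjusted p = 1.35e-06), a fall by 54.2%, and in AppSAA mice -0.92 ± 0.15 against ATV:ISO (2.97e-05) and -0.95 ± 0.15 against 4D9 (2.43e-05). Between genotypes it was -0.93 ± 0.15 under ATV:ISO (6.3e-05) and -0.73 ± 0.15 under ATV:4D9 (0.00203). All of these held in each of 20 fits without 1 mouse, and the difference of effects was 0.21 ± 0.21 (0.631). Per cell, the genotype differences stayed called (-0.69 and -0.83), while the ATV:4D9 effects of -0.27 in WT and -0.42 and -0.49 in AppSAA mice did not without the block. In all 3 of these comparisons Cass4 per cell was lower than in the pool mate in 4 of 4 pools, and with the block each was called (-0.27, adjusted p = 0.0405; -0.42, 0.00444; and -0.50, 0.00121).

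Abca7 (chr10:79996453-80015572), a phospholipid transporter of the ABCA family, was the only one of the 9 called higher in CPM after ATV:4D9 in WT mice; per cell, Bin1, Cd2ap, Abi3 and Ptk2b were called higher too. It had 9.64, 8.25, 12.6 and 12.3 CPM with ATV:ISO and 11.7, 13.4, 15.0 and 14.2 with ATV:4D9. The ranges overlapped, and each ATV:4D9 mouse was above the mouse of its pool. The log2 fold change was 0.34 ± 0.14 (adjusted p = 0.0406), and 1.18 ± 0.25 per cell (0.000271). The call in CPM was lost with limma-voom (0.0511) and without WT ATV:ISO replicate 1 (0.30, 0.0974) or 2 (0.24, 0.153) or WT ATV:4D9 replicate 2 (0.35, 0.0576), 3 (0.29, 0.104) or 4 (0.32, 0.0816). AppSAA mice had 10.6, 9.49, 13.2 and 13.1 CPM with ATV:ISO, 10.8, 10.4, 12.4 and 13.3 with 4D9 and 10.5, 11.7, 12.9 and 14.6 with ATV:4D9. No comparison in AppSAA mice was called in CPM, and per cell the rise after ATV:4D9 was 0.58 ± 0.24 against ATV:ISO (0.0485) and 0.52 ± 0.24 against 4D9 (0.0786). With the block, the per-cell difference of effects was called lower (-0.60, adjusted p = 0.000333).

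**Figure D2:**
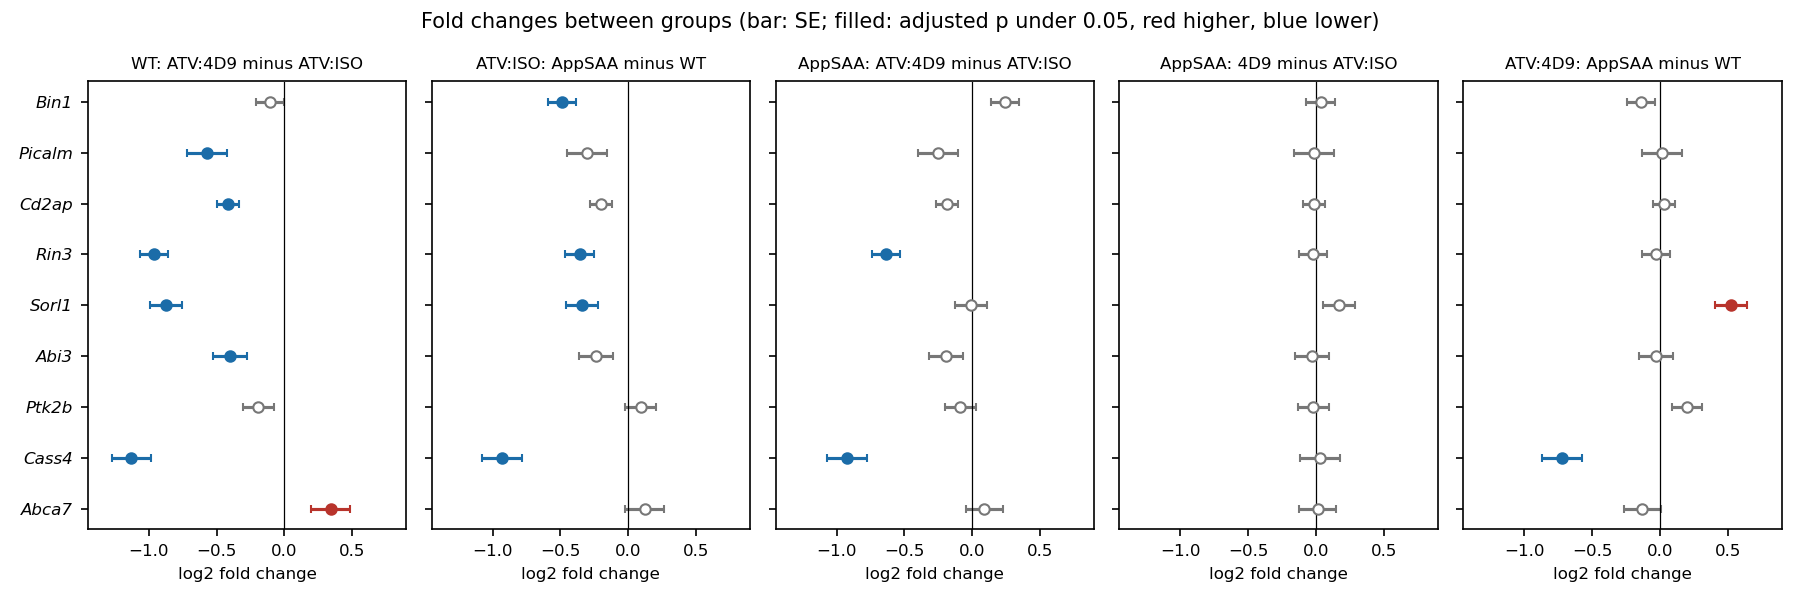
Log2 fold change of each gene in 5 comparisons between groups in CPM, with SE as bars; filled points passed an adjusted p of 0.05 (red higher, blue lower). Most filled points lie on the left in the WT panel (6 of 7, of which Picalm, Cd2ap and Abi3 are on the right per cell) and there is no filled point for 4D9 against ATV:ISO.

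**Figure D3:**
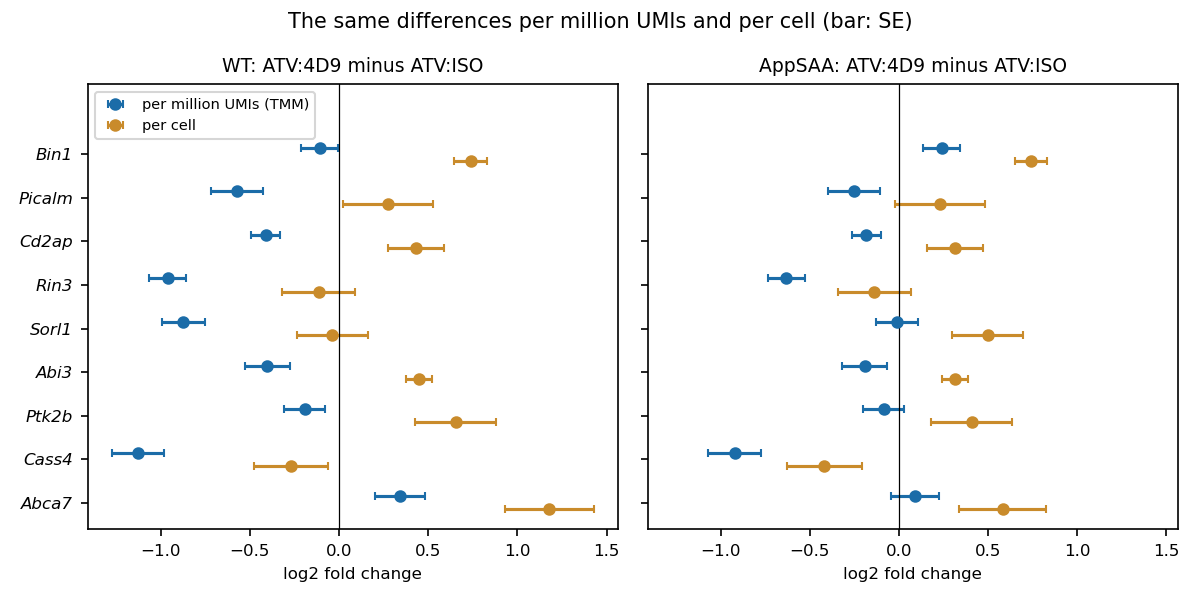
Log2 fold change after ATV:4D9 against ATV:ISO for each gene in WT (left) and AppSAA mice (right), in CPM (blue) and per cell (gold), with SE as bars. Per cell, every gene lies further to the right; in WT mice Rin3, Sorl1 and Cass4 remain left of 0 without a call in this fit, which has no pool block, and the other 6 are right of 0.

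The shift between the scales was common to all genes. Scaling to the number of cells moved the median log2 fold change of all 14058 genes by 0.84 in the WT comparison of ATV:4D9 with ATV:ISO, by 0.50 and 0.45 in AppSAA mice against ATV:ISO and 4D9, by 0.23 for genotype under ATV:ISO and by 0.04 for 4D9 against ATV:ISO. The shift was -0.11 for genotype under ATV:4D9 and -0.35 for the difference of effects. Beside a per-cell median of 0.79 over all genes in that WT comparison, Rin3, Sorl1 and Cass4 stood at -0.12 ± 0.21, -0.04 ± 0.20 and -0.27 ± 0.21 per cell, and Abca7 at 1.18 ± 0.25.

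The deposited clustering at resolution 0.2 split the cells into 6 clusters, numbered 0 to 5. The 6 microglial markers were high in each, at a summed level of 6157 (cluster 1) to 14603 CPM (cluster 0), and the immediate early genes set cluster 3 (21249 CPM) apart from cluster 0 (2938 CPM). Monocyte markers summed to 31.5 CPM in cluster 5 and 5.68 to 7.45 CPM in the others, and endothelial markers to 65.5 CPM in cluster 1 and 11.1 to 26.3 CPM in the others. WT ATV:ISO cells were mostly in clusters 0 (60.4 ± 2.60% of a mouse's cells, SD, n = 4) and 3 (35.8 ± 2.56%). WT ATV:4D9 cells were mostly in clusters 2 (47.8 ± 3.48%) and 4 (40.0 ± 4.44%). AppSAA ATV:ISO cells lay in clusters 1 (38.3 ± 4.64%), 0 (30.8 ± 1.92%) and 3 (25.1 ± 3.27%), and AppSAA ATV:4D9 cells in clusters 2 (35.4 ± 4.54%), 5 (22.4 ± 4.26%), 4 (22.4 ± 3.33%) and 1 (13.5 ± 3.05%). Since the cells were clustered on their expression, the levels of the 9 genes by cluster are a description, over mice with at least 20 cells in a cluster.

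Cass4 separated the clusters most. Its median level was 13.6 CPM in cluster 0 and 12.9 in cluster 3, against 2.92 in cluster 1, 5.55 in cluster 2, 4.27 in cluster 4 and 3.95 in cluster 5. Within mice, the log2 ratio to cluster 0 had a median of -2.11 in cluster 1 (lower in 15 of 16 mice), -1.29 in cluster 2 (18 of 20), -1.77 in cluster 4 (16 of 16) and -1.60 in cluster 5 (17 of 17). In UMIs per 100 cells its median over mice was likewise 12.2 in cluster 0 and 14.8 in cluster 3, against 3.59 in cluster 1, 7.62 in cluster 4, 5.96 in cluster 5 and 9.0 in cluster 2. Counts behind these were small, down to 0 in clusters 1, 4 and 5.

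In CPM the endocytic genes were also mostly lower outside clusters 0 and 3. Bin1 had its lowest level in cluster 1 (-0.65, lower in 16 of 16 mice), and Picalm (-0.58, 16 of 16) in cluster 4. Cd2ap was lower by a median of -0.41 in cluster 2 (20 of 20). Rin3 was lowest in cluster 5 (-0.65, 17 of 17) and cluster 2 (-0.61, 20 of 20), while Sorl1 was at -0.63 in cluster 2 and 0.04 in cluster 5. Abi3 was lowest in cluster 4 (-0.63, 16 of 16). Ptk2b was at 0.20 in cluster 5 (higher in 14 of 17), and Abca7 at 0.46 in cluster 4 (12 of 16).

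Per cell, the medians over mice of all 9 genes but Cass4 were higher in clusters 2 and 4 than in cluster 0. How many of all genes were higher per cell there was not counted, so this is not shown to be particular to the 9. The medians also cover different mice, 20 in clusters 0 and 2 and 16 in cluster 4, where 0 WT ATV:ISO mice had 20 cells. Bin1 had a median of 631 UMIs per 100 cells in cluster 0, against 1003 in cluster 2 and 1199 in cluster 4, with its lowest in cluster 1 (556). Picalm was highest in cluster 4, at 594 against 388 in cluster 0, and Abi3 too, at 476 against 318. Cd2ap was at 215 in cluster 0, 281 in cluster 2 and 346 in cluster 4. Rin3 was at 30.4 in cluster 0, 33.7 in cluster 2, 52.2 in cluster 4 and 27.9 in cluster 5, the only cluster where it was below cluster 0. Sorl1 had 21.5 in cluster 0 and 23.9 in cluster 2.

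**Figure D4:**
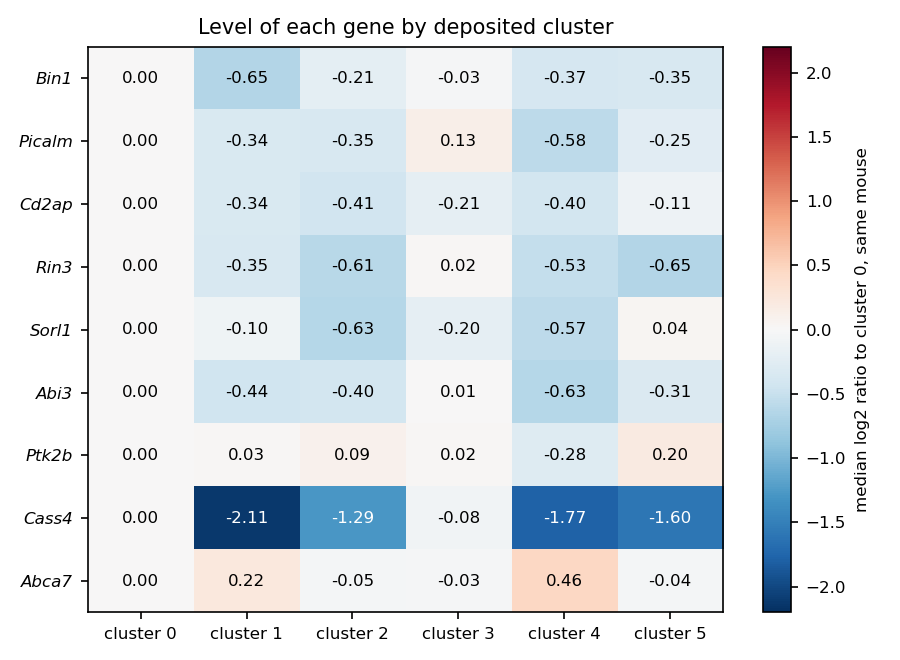
Median over mice of the log2 ratio of each gene's CPM in a deposited cluster to its CPM in cluster 0 of the same mouse; rows are genes, columns clusters, and blue is lower, red higher. The Cass4 row is darkest, at -2.11 in cluster 1 and -1.77 in cluster 4, and cluster 3 lies between -0.21 (Cd2ap) and 0.13 (Picalm).

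A difference between groups can be split into the part from the clusters' shares of UMIs and the part from levels inside clusters, in plain CPM of summed counts. The split used all cells, also those of clusters too small to be fitted, and has no estimate of error. WT ATV:ISO mice had only 18 to 62, 23 to 42, 6 to 13 and 11 to 31 cells in clusters 1, 2, 4 and 5, on which parts with these mice rest. For Abi3 in WT mice, the share part was -122 of a difference of -117 CPM. For Cass4 it was -7.93 of -9.33 CPM. Rin3 and Sorl1 differed, with share parts of -10.3 of -25.2 CPM and -5.59 of -16.3 CPM. For Picalm the share part was -126 of -219 CPM, and for Bin1 -147 of -118. In the genotype comparison under ATV:ISO, it was -211 of -319 CPM for Bin1 and -5.79 of -8.51 CPM for Cass4. For Sorl1 after ATV:4D9 in AppSAA mice, a share part of -5.97 CPM met a level part of 4.58 CPM, for a net difference of -1.39 CPM.

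Inside clusters, the genes were tested on counts summed per mouse and cluster. Cells were assigned to clusters by their expression after dosing, and the clusters' shares differed between the antibody groups. In a difference inside a cluster, a change in which cells it holds and a change of level in the same cells therefore cannot be told apart. Cluster levels below are TMM-scaled over all sums, and fold changes come from a fit within the cluster. ATV:4D9 against ATV:ISO in WT mice could be fitted in clusters 0, 2 and 3, since fewer than 3 mice had 20 cells in cluster 1 with ATV:4D9 and in clusters 4 and 5 with ATV:ISO. It called 4 of 27 gene and cluster pairs, where 4.42% of all gene and cluster pairs were called. ATV:4D9 mice had only 60 to 186 cells in cluster 0 and 104 to 242 in cluster 3, against 1255 to 1897 and 799 to 978 in ATV:ISO mice. ATV:ISO mice had 23 to 42 cells in cluster 2. In cluster 0, Rin3 had 36.9, 40.9, 45.6 and 44.2 CPM in ATV:ISO mice and 24.2, 22.3, 36.5 and 31.9 CPM in ATV:4D9 mice. All ATV:4D9 values lay below, and the log2 fold change was -0.63 ± 0.15 (adjusted p = 0.0312), where 1.47% of genes were called. Sorl1 had 27.9, 26.0, 32.1 and 33.2 CPM there against 21.7, 13.1, 15.6 and 15.97 CPM, again without overlap (-0.86 ± 0.21, adjusted p = 0.0280). In cluster 3, where 6.17% of genes were called, Rin3 had 39.5, 39.8, 42.9 and 45.1 CPM against 18.8, 23.1, 29.3 and 27.8 CPM. The groups did not overlap (-0.81 ± 0.13, adjusted p = 0.000211), as for Sorl1 with 20.4, 25.2, 29.4 and 28.6 CPM against 11.7, 13.0, 18.0 and 19.6 CPM (-0.79 ± 0.20, adjusted p = 0.0165). Of these, the cluster 3 call of Rin3 held without any 1 mouse. Rin3 in cluster 0 was not called without WT ATV:4D9 replicate 1, 2 or 4 or WT ATV:ISO replicate 2, 3 or 4 (adjusted p 0.0572 to 0.2). Sorl1 in cluster 0 was not called without WT ATV:4D9 replicate 2 or 4 or WT ATV:ISO replicate 3 or 4 (0.0659 to 0.177), and in cluster 3 not without WT ATV:4D9 replicate 1 or 2 (0.0904 and 0.0857).

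Cass4, whose WT difference lay mostly in the share part, was not called for this comparison in clusters 0, 2 or 3, with or without the pool block. In cluster 0 Cass4 had 16.4, 13.7, 14.01 and 14.7 CPM with ATV:ISO and 12.5, 13.1, 20.8 and 13.3 CPM with ATV:4D9. These overlapped. The log2 fold changes were -0.07 ± 0.19 in cluster 0, -0.40 ± 0.51 in cluster 2 and -0.06 ± 0.21 in cluster 3. The SE in cluster 2 is too wide to show whether Cass4 changed there. In AppSAA mice Cass4 in cluster 2 was at -0.95 ± 0.34 against ATV:ISO (adjusted p = 0.0603) and -0.55 ± 0.40 against 4D9 (0.403), neither called without the block.

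In AppSAA mice, Sorl1 was higher after ATV:4D9 in cluster 1, the cluster that held the largest share of AppSAA ATV:ISO cells. It had 25.2, 21.6, 25.5 and 17.9 CPM with ATV:ISO, 22.4, 23.9, 23.8 and 25.9 with 4D9 and 34.9, 39.6, 41.6 and 42.8 with ATV:4D9. Each ATV:4D9 mouse was above every other AppSAA mouse. The log2 fold change was 0.84 ± 0.11 against ATV:ISO (adjusted p = 0.000153, where 1.51% of genes were called) and 0.74 ± 0.11 against 4D9 (0.000499, 1.76%), and both held without any 1 mouse. In the other 5 clusters, Sorl1 was not called for these 2 comparisons over all mice; in cluster 4 it was called against ATV:ISO without AppSAA ATV:ISO replicate 3 (0.79, adjusted p = 0.0295). The summed endothelial markers, mostly Flt1 and Pecam1 over all cells, were highest in this cluster. Their sum was lower in ATV:4D9 mice over all cells, and its part was not tested. The cell number behind these values was 355 to 785 in ATV:4D9 and 1102 to 2269 in the other AppSAA mice.

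Bin1 was higher after ATV:4D9 in clusters 2 and 4 of AppSAA mice. In cluster 4 it had 433, 431, 469 and 428 CPM with ATV:ISO, 572, 501, 438 and 452 with 4D9 and 741, 653, 598 and 609 with ATV:4D9. The ATV:4D9 mice lay above all others, although ATV:ISO mice had only 27 to 74 cells there. The change was 0.55 ± 0.10 against ATV:ISO (adjusted p = 0.000355, 24.5% of genes called) and 0.40 ± 0.10 against 4D9 (0.00706, 22.1%). In cluster 2 Bin1 had 648, 563, 531 and 562 CPM with ATV:ISO, 636, 568, 523 and 580 with 4D9 and 835, 733, 657 and 651 with ATV:4D9. Again the ATV:4D9 mice were the highest, with changes of 0.30 ± 0.10 against ATV:ISO (adjusted p = 0.0436, 13.2% called) and 0.30 ± 0.10 against 4D9 (0.0471, 13.4%). The cluster 4 calls held without any 1 mouse. The cluster 2 call against ATV:ISO did not hold without AppSAA ATV:4D9 replicate 1 or 2, AppSAA ATV:ISO replicate 2, 3 or 4, AppSAA 4D9 replicate 2 or 4 or WT ATV:4D9 replicate 3 (adjusted p 0.0512 to 0.168). Against 4D9 it did not hold without AppSAA ATV:4D9 replicate 1 or 2, AppSAA 4D9 replicate 2, 3 or 4, WT ATV:ISO replicate 1, 2 or 4 or WT ATV:4D9 replicate 3 (0.0517 to 0.174).

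Rin3 and Cass4 were lower after ATV:4D9 than after ATV:ISO in cluster 5 of AppSAA mice. This cluster had the highest level of monocyte markers (31.5 CPM), whose part was not tested. Rin3 had 23.1, 34.1, 29.8 and 37.4 CPM there with ATV:ISO, 16.2, 18.4, 33.1 and 31.8 with 4D9, 12.3, 20.2, 18.8 and 19 with ATV:4D9, and 10.3, 8.78, 14.2 and 11.9 in WT ATV:4D9 mice. ATV:4D9 mice lay below all ATV:ISO mice. The change against ATV:ISO was -0.94 ± 0.19 (adjusted p = 0.000549, 29.7% called) and held without any 1 mouse. Against 4D9 it was -0.69 ± 0.24 (0.0477, 16.3% called), with overlap, and it was called in 8 of 20 fits without 1 mouse. It was lost without replicate 1, 3 or 4 of WT ATV:4D9, replicates 1 to 4 of AppSAA ATV:ISO, replicate 3 or 4 of AppSAA 4D9 and replicate 1, 3 or 4 of AppSAA ATV:4D9 (0.0501 to 0.272). Under ATV:4D9, Rin3 was 0.64 ± 0.19 higher in AppSAA than in WT mice in this cluster (adjusted p = 0.0427, 6.87% called), which was lost without WT ATV:4D9 replicate 1, 2 or 4 or AppSAA ATV:4D9 replicate 2, 3 or 4 (0.0842 to 0.129). Cass4 had 2.10, 9.99, 6.41 and 6.48 CPM with ATV:ISO and 2.34, 2.27, 2.28 and 3.77 with ATV:4D9, from 1 to 64 UMIs a mouse. The lowest ATV:ISO mouse lay below all ATV:4D9 mice, and the fit gave -1.39 ± 0.36 (0.00502). That call held in 20 of 20 fits without 1 mouse (adjusted p up to 0.0336). Against 4D9 the change was -1.32 ± 0.49, with overlap, and was not called (adjusted p = 0.0634). In cluster 2, Rin3 was called lower against ATV:ISO (-0.50 ± 0.17, adjusted p = 0.0466). That call held in 10 of 20 fits and was lost without AppSAA ATV:4D9 replicate 1 or 2, AppSAA 4D9 replicate 1 or 2, AppSAA ATV:ISO replicate 2, 3 or 4 or WT ATV:4D9 replicate 2, 3 or 4 (0.0502 to 0.191). With the pool block, the pairs called within clusters were 7 of 27 for ATV:4D9 in WT mice, where 12.6% of all gene and cluster pairs were called. In AppSAA mice they were 13 of 54 against ATV:ISO (18.9% of all pairs) and 10 of 54 against 4D9 (15.7%), and for genotype under ATV:4D9 5 of 45 (7%).

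**Figure D5:**
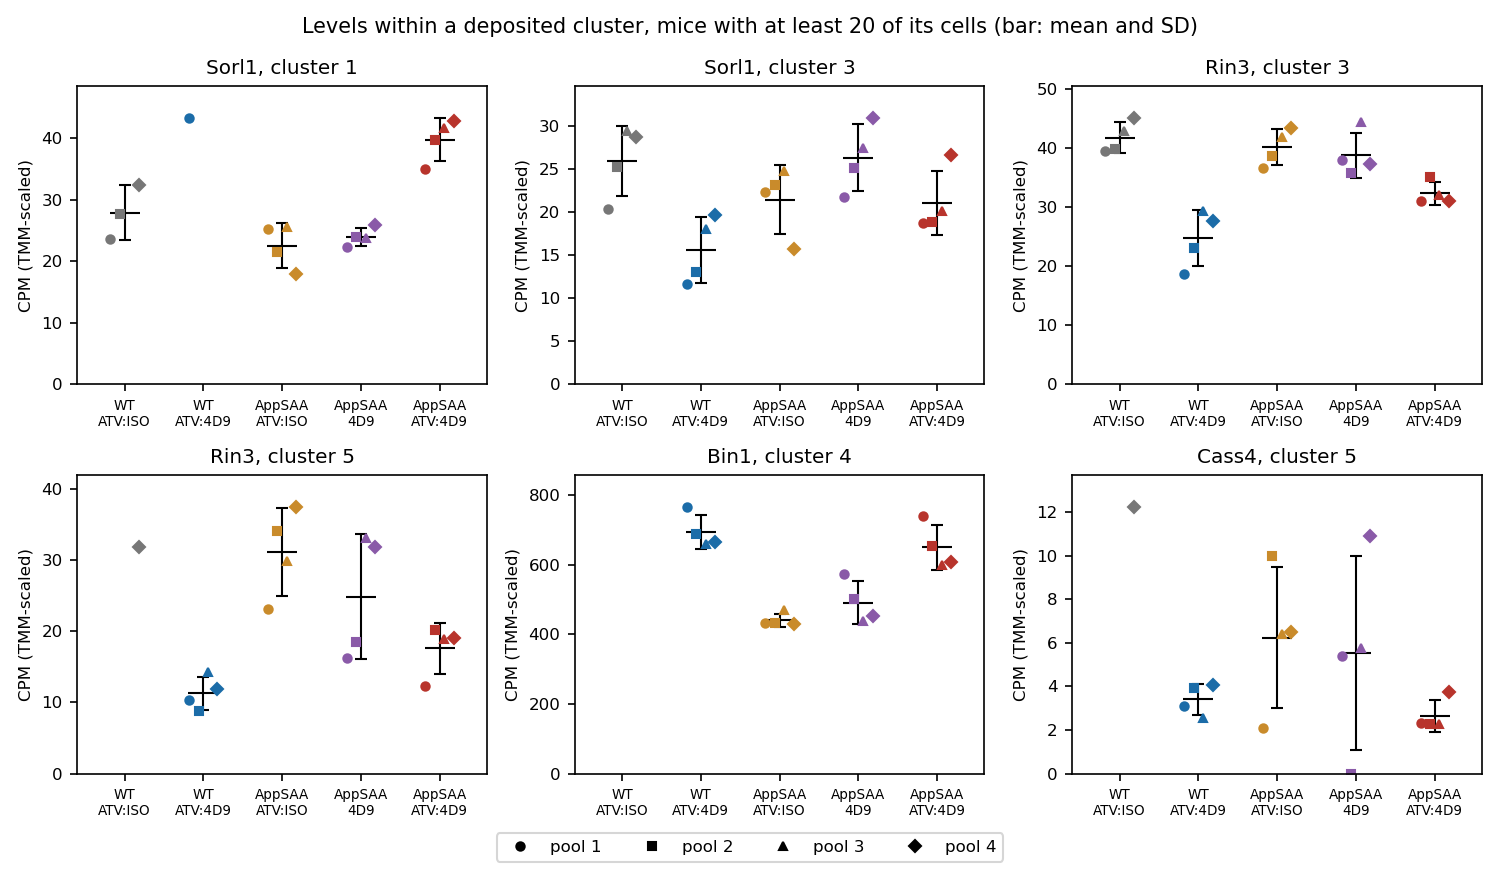
Levels of Sorl1, Rin3, Bin1 and Cass4 within deposited clusters in TMM-scaled CPM per mouse, for mice with at least 20 cells of the cluster; bars are mean and SD where a group has more than 1 such mouse. Sorl1 in cluster 1 is at 34.9 to 42.8 CPM in the 4 AppSAA ATV:4D9 mice and at 17.9 to 25.9 CPM in the other 8 AppSAA mice.

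No gene was called for AppSAA against WT under ATV:ISO in any of the 4 clusters where it could be fitted (0 of 36 pairs by edgeR, 3 at an unadjusted p under 0.05), where 0.189% to 1.21% of all genes were called. Of these 3, 2 were in cluster 1, where every AppSAA ATV:ISO mouse was below the 3 WT ATV:ISO mice with cells enough, at -1.67 ± 0.50 for Cass4 (adjusted p = 0.122) and -0.38 ± 0.12 for Bin1 (0.186). With the pool block, which called 2.62% of all gene and cluster pairs, Bin1 was called lower in clusters 0 (-0.17) and 1 (-0.32). 4D9 against ATV:ISO gave 0 of 54 pairs by edgeR (1 at an unadjusted p under 0.05), and the difference of ATV:4D9 effects 0 of 27 pairs in clusters 0, 2 and 3 (3 unadjusted), with and without the block. For Sorl1 that difference was 1.11 ± 0.29 in cluster 0 (adjusted p = 0.879), 0.67 ± 0.35 in cluster 2 (0.797) and 0.83 ± 0.29 in cluster 3 (1.00), beside 0.86 ± 0.17 over all cells. Of all gene and cluster pairs, these called 0% and 0.0455% without the block and 0.00603% and 0.243% with it.

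By their profile over the 20 mice, the genes most like each of the 9 were found among those with a mean of at least 10 CPM, by Pearson r of log2(CPM + 1); the mice share groups and pools. Rin3 ran closest with Col27a1, Stat5b and Foxo1 (0.99 each), and Cass4 with Prkab1 (0.99), Slc16a6 (0.98) and Il7r (0.98). Picalm was most like Ythdf3 (0.98), Leng8 (0.98) and Rptor (0.97), Cd2ap most like Rnf111, Nsd1 and Hltf (0.97 each) and Abi3 most like Vps72, Asb8 (0.97 each) and Creb3 (0.96). Bin1 was nearest to Pnp, Klk8 and Pdlim4 (0.96 each), and Ptk2b to Itpkb (0.97), Wwp2 (0.95) and Taok3 (0.94). Sorl1 and Abca7 had looser neighbours by this measure. They were Tent5a (0.88), Psme2b (0.87) and Camkk2 (0.86) for Sorl1, and Fndc3b (0.91), Mmgt1 (0.88) and Usp36 (0.87) for Abca7. Once group means were removed, r was 0.63, 0.41 and 0.57 for Sorl1 and 0.88, 0.83 and 0.75 for Cass4, in the order named. It was 0.90, 0.89 and 0.89 for Abca7, and 0.90 to 0.97 for the neighbours of the remaining genes.

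Genes that work beside the 9 moved in both directions in CPM, and mostly upward per cell, as all genes did. Of the calls per cell over all genes, 9582 of 9912 were higher after ATV:4D9 in WT mice. In AppSAA mice against ATV:ISO 7326 of 7774 were higher, and for the difference of effects 38 of 2234. Of 42 tested endocytic and sorting partners, 12 rose and 16 fell after ATV:4D9 in WT mice (66.7% called, against 63.3% of all genes; median -0.13, all genes -0.05), with Cltb (0.95 ± 0.13), a clathrin light chain, and Ap2s1 (0.79 ± 0.10), an adaptor subunit, higher. Rin2 (-0.91 ± 0.08), the paralog of Rin3, and Epn2 (-0.90 ± 0.10), an epsin, were lower in CPM, at -0.06 per cell for both without a call. Per cell, 33 of the 42 were higher and 0 lower in WT mice (78.6%, against 70.5% of all genes; median 0.72, all genes 0.79). In AppSAA mice 12 rose and 8 fell against ATV:ISO (47.6% called, all genes 55.1%; median -0.01, all genes -0.03), with Rin2 at -0.80 ± 0.08 and Cltb at 0.70 ± 0.13. Per cell 30 were higher and 1 lower (73.8%, all genes 55.3%). The test of the difference between genotypes called 1 of 42 higher (Capza2, 0.37 ± 0.10) and 1 lower (Gga2, -0.42 ± 0.11), where 9.14% of all genes were called, and per cell 0 higher and 8 lower (19%, all genes 15.9%).

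Of 26 tested WAVE and adhesion kinase partners, 8 rose and 8 fell in WT mice (61.5% called, all genes 63.3%; median -0.01), among them Arpc2 (0.77 ± 0.12), a subunit of the Arp2/3 complex, and Ptk2 (0.77 ± 0.12), the paralog of Ptk2b, higher, and Src (-0.93 ± 0.11) and Nckap1 (-0.92 ± 0.20) lower, though neither of the last pair was called per cell, where 18 were higher and 0 lower (69.2%, all genes 70.5%). AppSAA mice had 9 higher and 6 lower (57.7%, all genes 55.1%; median -0.02), with Ptk2 at 0.79 ± 0.11 and Vcl, which encodes vinculin, at -1.08 ± 0.18 in CPM. Per cell 14 were higher and 0 lower (53.8%, all genes 55.3%), and Vcl was at -0.56 ± 0.26 without a call. The difference between genotypes called 3 of 26 (11.5%, all genes 9.14%), all higher, including Src (0.71 ± 0.16) and Lyn (0.45 ± 0.13), of which neither was called per cell. Per cell it called 0 of the 26 higher and 1 lower (3.85%, all genes 15.9%). Of 9 Abca7 relatives, 0 rose and 7 fell in WT mice (77.8%, all genes 63.3%; median -0.68), with Abca6 at -3.46 ± 0.47 from a mean of 0.297 CPM and Abca9 at -1.48 ± 0.15, whereas Abca7 itself was higher. Per cell, 3 relatives were higher and 2 lower (55.6%, all genes 70.5%), Abca6 (-2.66) and Abca9 (-0.65) being the lower ones. In AppSAA mice 6 fell in CPM (66.7%, all genes 55.1%, median -0.51), and per cell 2 were higher and 2 lower (44.4% beside 55.3%). Abca1, a cholesterol exporter, was called for the difference between genotypes in CPM (0.81 ± 0.21), and per cell it was at 0.46 without a call. Per cell that test called 0 of the 9 relatives higher and 1 lower (11.1%, all genes 15.9%). For 4D9 against ATV:ISO, 0 genes of the 3 lists were called on either scale.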

How the data were processed

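Brain CD11b+ cells of 20 mice were profiled by 10x 3′ scRNA-seq with CellPlex tags. The deposited files hold, per the file headers and the labels, whole-number UMI counts per gene and cell, with each cell's mouse, group and cluster; the authors made them with Cell Ranger 6.1.1 on mm10 (submitters' processing notes) and clustered them with Seurat; how cells and doublets were filtered is not given in the sources used here. Each deposited GEO sample is a mixed pool, so mouse and group come from the deposited cell annotation, with the treatment name ATV-DNP02 read as ATV:ISO. No per-sample column was left out. Another marker first listed for microglia was left out and is not reported here.

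No further cells were removed. Counts were summed per mouse (17150296 to 102446549 UMIs) and per mouse and cluster (sums of at least 20 cells, groups of at least 3 sums). All 5 groups were fitted together with edgeR 4.0.16 (filterByExpr, TMM, quasi-likelihood test, no pool block), 14058 genes were tested between groups, and Benjamini-Hochberg adjusted p of 0.05 was the threshold. Adjusted p-values in the text come from this test unless another tool or setting is named, and are two-sided. They weigh a difference against the spread between mice of a group. Without the pool block, that spread includes the differences between pools, and the pairing of mice by pool is not used. SEs were derived from the fold change and its F statistic. Per-cell values use the number of cells in place of the library size. Cluster levels were scaled over all cluster sums together, and log2 ratios between clusters add 0.5 CPM. Alternatives were RLE factors, scaling to cells, no filter, DESeq2 1.42.0, limma-voom 3.58.1, pool as a block, cells of 1000 to 25000 UMIs, only the groups compared, scaling to cells together with the block (chosen after seeing the data), sums of at least 50 cells, a finer clustering (resolution 0.4 in place of 0.2) and each mouse left out. The fits were tested on simulated counts in which a small part of the genes changed, only in WT ATV:4D9 mice, and pools did not differ. That test does not cover changes in most genes or differences between pools, both of which are present here. R 4.3.3, Python 3.11.15, pandas 2.3.3, NumPy 2.4.6 and matplotlib 3.10.9 were used.

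The labels put 1 mouse of each group in each pool, and deviations from group means correlated above 0.1 in 40 of 40 pairs of mice of a pool (0.225 to 0.719; median -0.26 over 120 pairs from other pools and groups), so pool number pairs the mice. All 9 genes are named in every comparison. With each are named the 3 genes of at least 10 mean CPM most like it, and from each partner list at most 2 called genes in each direction, by size of change. The members and lists were chosen with earlier results of these data known.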

Additional observations from a re-analysis of the deposited data

Results flagged for a closer look

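One mouse stood apart from its group. Cass4 was at 5.83 CPM in WT ATV:4D9 replicate 1, below the 6.91 to 7.06 CPM of the other 3 mice. The gap to its neighbour was 0.884 of the range of the group, above the critical value of Dixon's test for a group of that size. With 45 sets of 4 mice examined, chance alone flags about 1 set in 20. The Cass4 calls between groups held when this mouse was left out.

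The ATV:4D9 effect on Sorl1 differed between AppSAA and WT mice by 0.86 on the log2 scale in CPM, by edgeR's test of the difference itself (adjusted p = 0.00219). Per cell it was 0.54 and was not called (adjusted p = 0.209), unless pool was a block (0.51, adjusted p = 0.0164).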

How the results depend on the processing

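Scaling to the number of cells turned the sign of 29 of 63 log2 fold changes, of which 21 were called on neither scale. The other 8, called on at least 1 scale, became in WT mice after ATV:4D9 0.74 (Bin1), 0.27 (Picalm), 0.43 (Cd2ap), 0.45 (Abi3) and 0.65 (Ptk2b), in AppSAA mice against ATV:ISO 0.50 (Sorl1) and 0.31 (Abi3), and against 4D9 0.31 (Abi3). It lost 11 other calls and gained 3. The number of the 9 genes called became 2 for genotype under ATV:ISO, 4 for ATV:4D9 against ATV:ISO in AppSAA mice, 1 for genotype under ATV:4D9 and 0 for the difference of effects. With the pool as replicate block, the numbers were 8, 7, 4 and 6 in the same order, and 6 for ATV:4D9 against 4D9; it gained 22 calls between groups and changed no other. Scaling to cells with the pool block, chosen after seeing the data, called 7 genes for ATV:4D9 in WT mice, 4 for genotype under ATV:ISO, 9 for ATV:4D9 against ATV:ISO, 9 against 4D9, 4 for genotype under ATV:4D9 and 3 for the difference of effects. It turned 16 values called on at least 1 scale, to 0.74 (Bin1), 0.28 (Picalm), 0.43 (Cd2ap), 0.45 (Abi3) and 0.65 (Ptk2b) in WT mice. In AppSAA mice these were 0.26 (Picalm), 0.32 (Cd2ap), 0.49 (Sorl1), 0.31 (Abi3) and 0.42 (Ptk2b) against ATV:ISO and 0.23, 0.30, 0.27, 0.30 and 0.40 in the same order against 4D9, and Ptk2b was at -0.24 for the difference of effects. The shares of all genes called per cell and with the block are given above. DESeq2 called 4 genes for ATV:4D9 against ATV:ISO in AppSAA mice, gaining Bin1 and Cd2ap, where 7898 of 14058 genes were called.

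Within clusters, the block gave 7 gene and cluster pairs for ATV:4D9 in WT mice, 2 for genotype under ATV:ISO, 13 for ATV:4D9 against ATV:ISO and 10 against 4D9 in AppSAA mice, and 5 for genotype under ATV:4D9. Sums of at least 50 cells gave 1 of 27 pairs against 4D9 and 2 of 36 for genotype under ATV:4D9, with fewer clusters fitted. Shares of all gene and cluster pairs called with the block are given above, and none is given for sums of at least 50 cells.

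Leaving out 1 mouse at a time, the genes called between groups numbered 6 to 7 for ATV:4D9 in WT mice, 3 to 5 for genotype under ATV:ISO, 2 to 3 for ATV:4D9 against ATV:ISO, 0 to 0 for 4D9 against ATV:ISO, 2 to 4 for ATV:4D9 against 4D9, 2 to 2 for genotype under ATV:4D9 and 1 to 2 for the difference of effects. Pairs within clusters numbered, in the same order, 1 to 4, 0 to 0, 4 to 8, 0 to 0, 2 to 5, 0 to 2 and 0 to 0. Of 14084 to 14263 genes tested, the fits between groups called 8354 to 9021 for ATV:4D9 in WT mice. Genotype under ATV:ISO gave 3192 to 4337. ATV:4D9 in AppSAA mice gave 6777 to 7848 against ATV:ISO and 6624 to 7749 against 4D9. Genotype under ATV:4D9 gave 1103 to 1719 and the difference of effects 969 to 1861. Such shares are not given for the pairs within clusters.

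RLE factors, no filter, limma-voom, the limits on UMIs per cell and only the groups compared each lost 1 of 18 calls: that of Sorl1 for genotype under ATV:ISO, or with limma-voom that of Abca7 in WT mice. Of 45 cluster levels, 1 moved under the finer clustering. Depth limits Cass4 within clusters, where sums fell to 0 UMIs, and each group holds 4 mice. The causes of these changes were not tested.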

Other observations

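Other genes at human AD risk loci were counted from a list of 60, of which 52 were tested. In CPM, 12 were higher and 18 lower after ATV:4D9 in WT mice (57.7% called, beside 63.3% of all genes, with a median log2 fold change of -0.10, beside -0.05). Per cell 32 were higher and 1 lower (63.5%, beside 70.5% of all genes, with 9582 of 9912 calls over all genes higher). Adamts1, a secreted metalloprotease (1.86 ± 0.16), and Zcwpw1 (1.41 ± 0.09) were the largest rises. The largest falls were those of Maf, a macrophage transcription factor (-1.29 ± 0.12), and Tpcn1, an endolysosomal ion channel (-1.15 ± 0.10, not called per cell).

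Between genotypes under ATV:ISO, 10 were higher and 12 lower in AppSAA mice in CPM (42.3%, beside 28.2% of all genes), and 13 higher and 1 lower per cell (26.9%, beside 24.4%). Hs3st1, a heparan sulfate sulfotransferase, was higher by 4.83 ± 0.46 from a mean of 1.69 CPM over all mice. In AppSAA mice ATV:4D9 gave 12 higher and 16 lower against ATV:ISO (53.8%, beside 55.1%), with Scimp, an immune adaptor, at 1.24 ± 0.18 and Hs3st1 at -2.63 ± 0.31 in CPM, and per cell 29 and 1 (57.7%, beside 55.3%). For 4D9 against ATV:ISO, edgeR called 0 on either scale. Under ATV:4D9, 8 were higher and 0 lower in AppSAA than in WT mice (15.4%, beside 11.8%), with Hs3st1 at 2.77 ± 0.44 and Scimp at 1.81 ± 0.19 in CPM, and per cell 3 and 0 (5.77%, beside 5.96%). The difference of effects called 6 higher and 2 lower (15.4%, beside 9.14%), the latter being Adamts1 (-1.33 ± 0.22) and Ctsb, the lysosomal protease cathepsin B (-0.71 ± 0.11). Both were called lower per cell as well, where 0 of 52 were higher and 8 lower (15.4%, beside 15.9%).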
